A study of Mus musculus with 20 samples.

Results

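Cadherins and protocadherins were taken as every gene whose symbol is Cdh or Pcdh followed by its number or letters, in the 4 expression tables and the 4 editing tables of a MAPIT-seq study of mouse embryo and embryonic brain sections. The rule found 93 gene IDs with 92 symbols among 38414 gene IDs, since Pcdha11 stands on 2 IDs. They comprise 5 type I and 13 type II classical cadherins, the GPI-anchored Cdh13, 2 seven-domain cadherins (Cdh16 and Cdh17), the 2 stereocilia genes Cdh23 and Pcdh15, and Cdh26. The protocadherins comprise 4 delta-1 and 5 delta-2 genes, Pcdh12 and Pcdh20, and 14 alpha, 22 beta and 22 gamma gene IDs of the clusters. Of the 93 gene IDs, 61 lie on chromosome 18.

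In MAPIT-seq an antibody brings the fusion rAPOBEC1-pAG-hADAR2 to a protein, here G3BP1, an RNA-binding protein of stress granules, and RNA near it acquires C-to-T and A-to-G edits that are read together with the transcriptome. All sections came from wild-type C57BL/6J mice, and each of the 10 groups has 2 libraries. At E10.5, whole embryo in a fixed and in a fresh-frozen preparation was treated with anti-G3BP1, with rabbit IgG, or left untreated. At E12.5 and E16.5, fresh-frozen brain was treated with anti-G3BP1 or with IgG. Per the labels, sections given an antibody were fixed with 0.2% formaldehyde. Untreated sections had neither fixation nor antibody nor deaminase, although those of the fixed embryo also carry the treatment label of that preparation. Nothing in the labels says that replicates came from separate animals, so p-values measure the spread between these libraries, which may be technical.

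Classical cadherins join cells through calcium-dependent binding of like molecules and hold the actin skeleton through catenins. Protocadherins have a similar outer part but no catenin site. The alpha, beta and gamma clusters give neurons surface identities by choosing among many first exons, and within the alpha and the gamma cluster each chosen exon is spliced to the same constant exons.

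Those constant exons limit what can be told apart. A median of 53.45% of the exonic bases of an alpha gene and of 44.7% of a gamma gene were shared with another member in the annotation. Among member sites that no library of the table covered with fewer than 10 reads, 18 of 50 in the fixed embryo, 83 of 517 in the libraries labelled fresh-frozen E10.5, 137 of 304 in E12.5 brain and 249 of 1365 in E16.5 brain were listed under several members, up to 22 for 1 site. These are 36.0%, 16.1%, 45.1% and 18.2% of the member sites, against 1.51%, 1.03%, 1.38% and 1.17% of all such sites listed under several genes. Each shared site is 1 observation repeated, so editing calls below are counted per gene ID and per distinct set of sites. Expression counts are per gene ID alone. How reads in shared exons were assigned for TPM is not given in the sources used here, and TPM of single alpha and gamma genes is therefore uncertain. In fixed embryo several alpha genes kept a nearly fixed ratio to the alpha median. Pcdha1 was at 0.9995 ± 0.0013 times and Pcdha4 at 0.9276 ± 0.0012 times that median (SD, n = 6). The TPM of such genes are not separate measurements. Others varied, such as Pcdha12 at 1.34 ± 0.63 times, but alpha gene IDs averaged only 0.19 to 0.35 TPM in fixed embryo. Pcdha12 had 0.78 TPM in untreated replicate 2 and 0.16 to 0.30 TPM in the rest, so its spread rests on that library.

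The libraries labelled fresh-frozen E10.5 embryo went against that label. Myl7, a heart muscle gene, averaged 4.63 ± 4.79 TPM there, against 2431 ± 466 TPM in fixed embryo (SD, n = 6 each). Afp, made by embryonic liver and yolk sac, averaged 0.170 ± 0.416 TPM there, against 286.6 ± 106 TPM in fixed embryo. Gria2, a glutamate receptor subunit of neurons, averaged 341 ± 67.9 TPM there, against 1.005 ± 0.513 TPM in fixed embryo, and 87.2 ± 11.6 TPM in E16.5 brain (n = 4). They are called the libraries labelled fresh-frozen E10.5 throughout. Among them IgG replicate 1 stood apart, with 25508 genes at 1 TPM or more, against 20770 to 21514 in the others. E16.5 and E12.5 brain share their labels for tissue, preparation and antibodies, so by the labels they differ in stage, but each has its own table, and stage and table cannot be told apart. E12.5 brain differs from fixed embryo in stage, tissue and preparation together, and E16.5 brain from the libraries labelled fresh-frozen E10.5 in the stage and tissue of the labels. Depth at the tested sites was 1997345 to 12120842 reads per library in the fixed embryo, 5886522 to 9850910 in the libraries labelled fresh-frozen E10.5, 2933879 to 8731284 in E12.5 brain and 36753147 to 63989003 in E16.5 brain.

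Some edited sites recurred in separate tables. Of 94 member sites covered in both the libraries labelled fresh-frozen E10.5 and E16.5 brain, 14 had 5 or more edited anti-G3BP1 reads in both. The same share over sites of all genes was not counted, so 14 of 94 is not shown to be particular to the family. All 14 were A-to-G, as were 43 of the 94. They were chosen for their edited reads, after values were seen, so their shares are a description. The 9 of them outside the chromosome that holds the clusters are printed with 14 bases on each side, on the transcript strand from 5′ to 3′, from the GENCODE M21 transcripts of GRCm38. The capital is the edited base. All 9 lie in 3′ UTRs, as did most member sites, 365 of 517 in the libraries labelled fresh-frozen E10.5 and 1165 of 1365 in E16.5 brain. The base before the edited A was A in 6 and T in 3, and was not counted for other sites.
Pcdh19, chrX:133583689-133583717, minus strand: tgcaaaagtgaattAatttcaaataggaa
Pcdh17 site A, chr14:84537004-84537032, plus strand: taggctcttgtaaaAcatgactttccttt
Pcdh17 site B, chr14:84537113-84537141, plus strand: tatgctttatgagaAccaggttaaaagct
Pcdh17 site C, chr14:84537306-84537334, plus strand: tgaaacataattgaAtgagacctgattaa
Pcdh17 site D, chr14:84537424-84537452, plus strand: gtgattggtgaacaAcgacgacgacaaca
Cdh4, chr2:179898701-179898729, plus strand: ctcagtttccccatAgtgagtatgtggtc
Cdh13, chr8:119324717-119324745, plus strand: cacacagtggcacaAacatgctttctact
Cdh22 site A, chr2:165111839-165111867, minus strand: gctggtcatttactAagcacctactgtgt
Cdh22 site B, chr2:165111699-165111727, minus strand: acacccaggcagcaAgtggtggagcctct

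Reads of both libraries of a group were pooled at single sites. At the Pcdh19 site, 11 of 28 anti-G3BP1 reads (39.3%) were edited in the libraries labelled fresh-frozen E10.5, against 2 of 42 IgG reads (4.76%) and 0 of 41 untreated reads. In E16.5 brain the same base was edited in 59 of 292 anti-G3BP1 reads (20.2%) and 25 of 307 IgG reads (8.14%). Pcdh17 site A was edited in 18.8% of anti-G3BP1 reads, 2.35% of IgG reads and no untreated read in the libraries labelled fresh-frozen E10.5, and in 8.86% of anti-G3BP1 and 2.76% of IgG reads in E16.5 brain. Pcdh17 sites B to D lay between 11.2% and 16.1% in anti-G3BP1 reads of the libraries labelled fresh-frozen E10.5, with no edited IgG read. In E16.5 brain they lay between 3.83% and 7.27% in anti-G3BP1 reads and between 0.96% and 1.56% in IgG reads. The Cdh13 site was at 14.3% of anti-G3BP1 and 3.28% of IgG reads in the libraries labelled fresh-frozen E10.5, and at 5.6% and 1.24% in E16.5 brain. At Cdh22 site A IgG was high as well, with 10.1% of anti-G3BP1 and 8.41% of IgG reads in the libraries labelled fresh-frozen E10.5 and 16.2% and 10.9% in E16.5 brain. None of the 9 sites had an edited read in the untreated libraries, at 40 to 377 reads per site, and 0 of 40 reads allows a share of up to 7.5%. Such limits, and the intervals below, cover counting error only.

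Over E16.5 and E12.5 brain, most of the family rose. Values were tested with limma on log2(TPM + 1), 4 libraries against 4 with the antibody as a covariate, adjusted over all genes by Benjamini-Hochberg at 0.05. Of 86 members that reached 1 TPM in 2 or more libraries, 76 rose, 3 fell and 7 did not pass, where 32.3% of all 20162 genes rose and 17.7% fell. The 76 include 14 alpha and 22 gamma gene IDs, which share exons and are not separate observations. The median change was 1.37 over the members and 0.17 over all genes on this log2 scale, which understates the change of low genes.

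**Figure D1:**
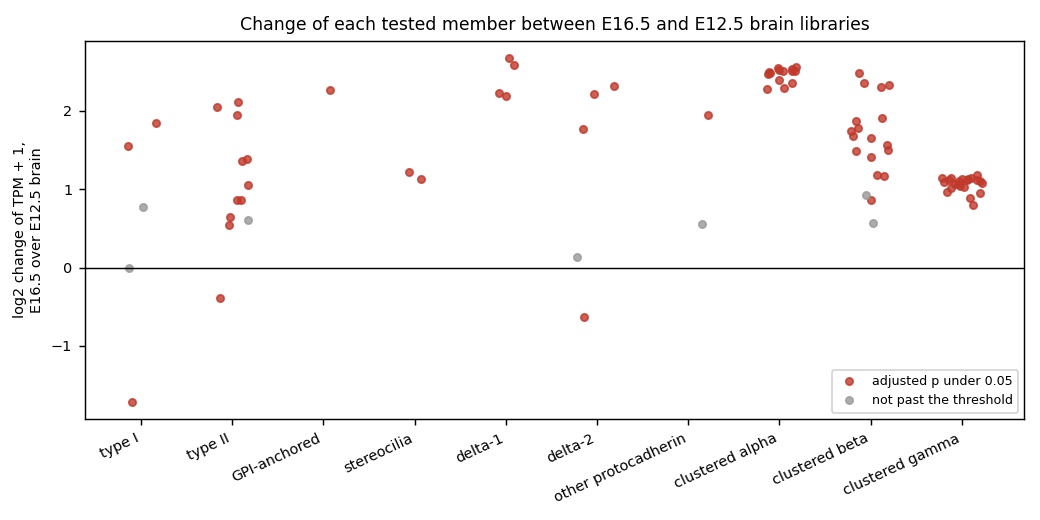
Log2 change of TPM + 1 between E16.5 and E12.5 brain for each tested member (1 point per gene), grouped by subfamily, with red points past an adjusted p of 0.05 in limma and grey points not past it. The delta-1 and alpha genes sit above 2, and Cdh1 at -1.71 is the lowest point.

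Among type I cadherins, Cdh2 (N-cadherin, of the neural epithelium) had 116, 99.6, 98.5 and 104 TPM in E16.5 brain, against 94.7, 88.4, 134 and 106.6 TPM in E12.5 brain. The groups overlapped, and the difference was -0.00 (SE 0.13, limma adjusted p = 0.984). Cdh4 (R-cadherin, of retina and brain) had 109.5, 104, 108.5 and 107.7 TPM in E16.5 brain, against 25.8, 32.8, 50.004 and 39.4 TPM in E12.5 brain, and rose by 1.55 (SE 0.15, limma adjusted p = 4.31e-05). Cdh1 (E-cadherin, of epithelia) had 2.6, 1.7, 3.2 and 1.8 TPM in E16.5 brain, against 7.3, 5.1, 14.4 and 15.8 TPM in E12.5 brain. It fell by 1.71 (SE 0.29, limma adjusted p = 0.0012). The 5 epithelial markers summed to 5.6 to 7.2 TPM in E16.5 brain, against 7.4 to 39.8 TPM in E12.5 brain, and their part in the Cdh1 difference was not tested. Both E12.5 IgG libraries were above both E12.5 anti-G3BP1 libraries for Cdh1.

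Type II cadherins mostly rose, 10 of 12 tested, with 1 lower. Cdh10 had 13.5, 12.6, 16.99 and 16.2 TPM in E16.5 brain, against 2.2, 2.6, 4.4 and 3.3 TPM in E12.5 brain, and rose by 1.95 (SE 0.17, limma adjusted p = 2.98e-05). Cdh9 and Cdh18 rose by 2.11 and 2.05. Cdh11, of mesenchyme and brain, overlapped, with 30.5, 27.4, 31.4 and 30.5 TPM in E16.5 brain, against 12.9, 12.2, 35.4 and 24.1 TPM in E12.5 brain (limma adjusted p = 0.0513). Cdh24, the member with the highest mean in both brain tables, averaged 145.6 ± 12.9 TPM in E16.5 brain and 190.7 ± 22.5 TPM in E12.5 brain (SD, n = 4 each) and fell by 0.38, a call lost without either E16.5 anti-G3BP1 library. Cdh5 (VE-cadherin, of endothelium) rose by 0.54, with 19.8, 23.7, 20.9 and 25.2 TPM in E16.5 brain and 14.7, 15.9, 12.9 and 16.7 TPM in E12.5 brain. The 5 other endothelial markers summed to 71.7 to 74.1 TPM in E16.5 brain and 53.3 to 77.5 TPM in E12.5 brain. In such bulk sections, fewer cells of a type and less RNA per cell cannot be told apart.

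GPI-anchored Cdh13 (T-cadherin) lacks an inner part and so cannot bind catenins. It had 43.7, 50.8, 51.1 and 50.1 TPM in E16.5 brain, against 8.7, 10.3, 10.02 and 8.5 TPM in E12.5 brain, with no overlap and a rise of 2.27 (SE 0.12, limma adjusted p = 2.63e-06).

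All 4 delta-1 protocadherins rose, by 2.19 to 2.67. Pcdh1 had 47.3, 54.5, 58.2 and 53.1 TPM in E16.5 brain, against 6.9, 7.4, 7.7 and 8.0 TPM in E12.5 brain, and rose by 2.67 (SE 0.11, limma adjusted p = 9.3e-07). Pcdh9 had 24.5, 23.5, 29.2 and 23.8 TPM in E16.5 brain, against 2.5, 4.0, 6.0 and 7.1 TPM in E12.5 brain, and rose by 2.22. Every E16.5 library was above every E12.5 library for both genes. Of the 5 delta-2 genes, Pcdh17, Pcdh10 and Pcdh19 rose by 2.31, 2.21 and 1.77. PCDH19 is known in people for an X-linked epilepsy, and Pcdh10 and Pcdh17 act in axon growth in mice. Pcdh8 overlapped (71.6 ± 2.62 TPM in E16.5 brain and 67.1 ± 19.6 TPM in E12.5 brain), and Pcdh18 fell by 0.63, with 29.5, 29.1, 30.1 and 26.4 TPM in E16.5 brain against 40.2, 36.1, 61.8 and 45.9 TPM in E12.5 brain.

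**Figure D2:**
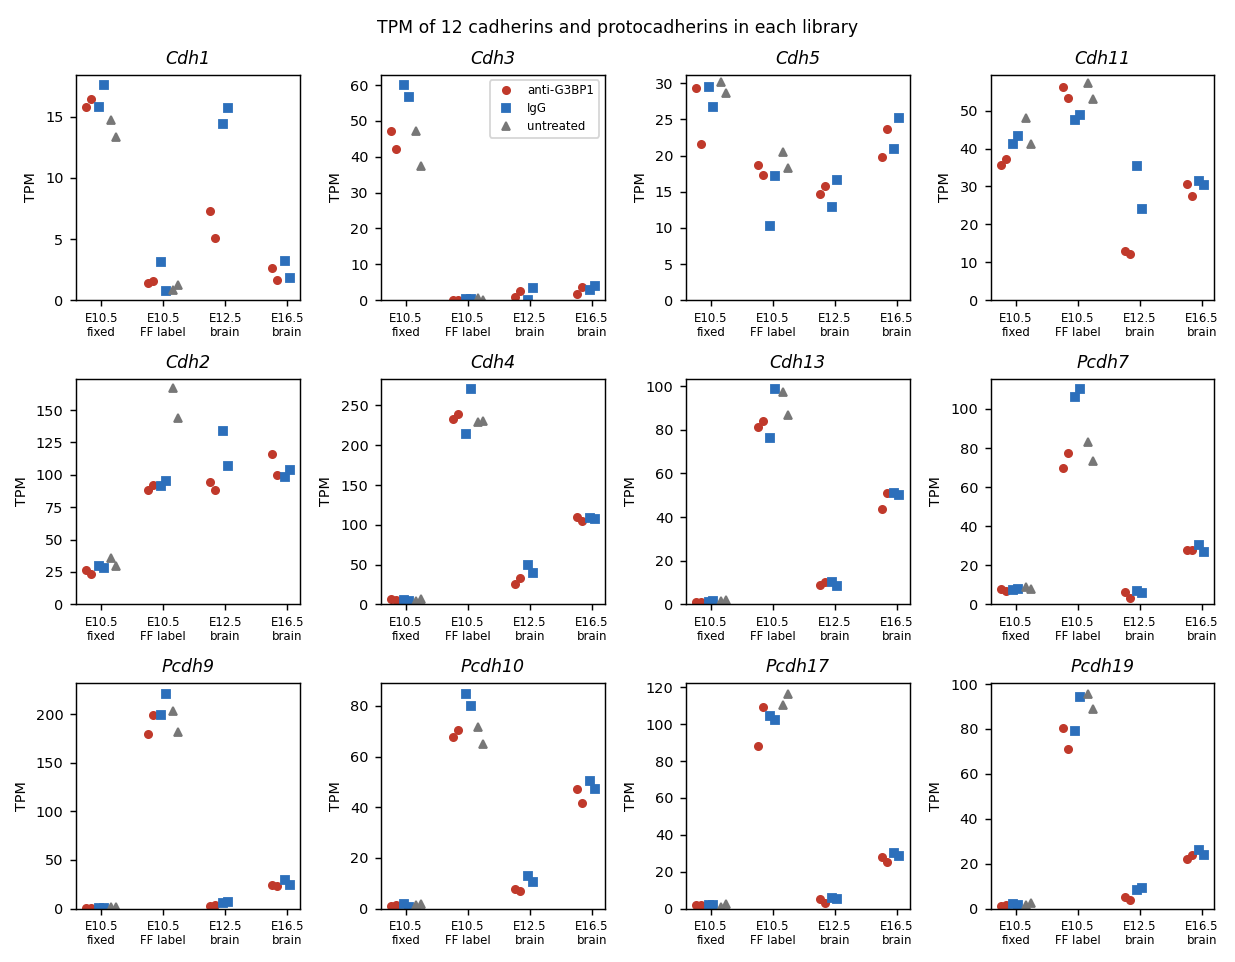
TPM of 12 members in each library, with 1 point per library, 4 tables on each x axis and colour and shape giving anti-G3BP1, IgG and untreated. FF label marks the libraries labelled fresh-frozen E10.5, where Pcdh9 is at 179 to 221 TPM, against 23.5 to 29.2 TPM in E16.5 brain.

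In the clusters all 14 alpha and all 22 gamma gene IDs rose, by 2.28 to 2.56 and by 0.80 to 1.17. Given the shared exons these are not separate observations. The 22 beta genes have no constant exon, and 20 of them share no exonic base with another member. Pcdhb21 and Pcdhb22 overlap by 455 bases, which are 9.7% and 6.9% of their exons. Of 19 tested, 17 rose and 2 did not pass, with a median of 1.65. Pcdhb17 had 21.7, 19.1, 25.6 and 23.8 TPM in E16.5 brain, against 3.0, 4.8, 3.3 and 3.5 TPM in E12.5 brain. Of the beta genes, Pcdhb5, Pcdhb7, Pcdhb9, Pcdhb17, Pcdhb20 and Pcdhb22 stood over 1.5 times the beta median in every E16.5 library. No alpha or gamma gene stood so far above its cluster median. Their shared exons draw such ratios towards 1, so the clusters cannot be compared in this way.

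**Figure D3:**
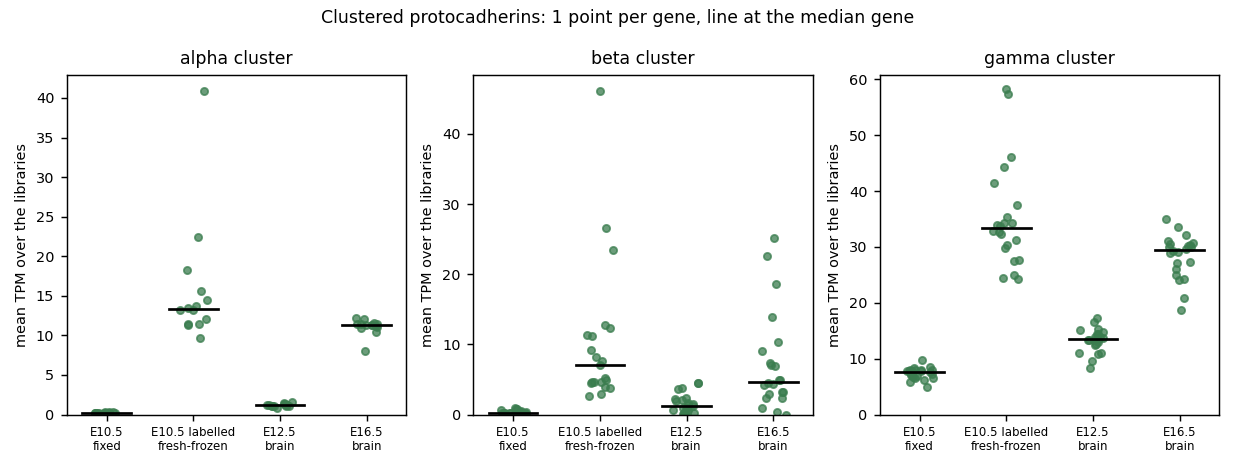
Mean TPM of each clustered protocadherin in the 4 tables (1 point per gene ID, black line at the median gene). In E16.5 brain the median gene is at 11.3 TPM in the alpha cluster, 4.65 TPM in the beta cluster and 29.5 TPM in the gamma cluster.

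Partner genes moved in both directions, and their counts are read against the 32.3% of all genes that rose and the 17.7% that fell. Of 11 catenins and linkers tested, 6 rose and 3 fell in E16.5 over E12.5 brain. Ctnna2, the neuronal alpha-catenin, rose by 1.55, and Ctnna1, its broadly expressed relative, fell by 1.05. Of 10 genes of protocadherin signalling to kinases and the WAVE complex, 8 rose and none fell. Of 11 genes of cluster promoter choice and silencing, which include Ctcf and cohesin, none rose and 3 fell (Nipbl, Smc3 and Smc1a). Of 11 large and divergent cadherins 7 rose and 3 fell, and of 7 processing proteases none rose and 2 fell. The 5 neuron markers summed to 4625 to 4731 TPM in E16.5 brain, against 2695 to 3216 TPM in E12.5 brain, and 5 neural progenitor markers to 1468 to 1938 TPM, against 2494 to 2819 TPM. All 5 glia markers rose, with a sum of 116 to 134 TPM in E16.5 brain, against 39.6 to 75.6 TPM in E12.5 brain. Of 5 mesenchyme and meninges markers 4 fell and 1 rose, with a sum of 53.7 to 70.8 TPM, against 139 to 219 TPM in E12.5 brain. Erythroid markers summed to 593 to 653 TPM in E16.5 brain, against 7935 to 11229 TPM in E12.5 brain, and 4 of 5 fell. Hbb-y and Hba-x made most of the E12.5 sum, at means of 5136 and 3387 TPM, against 15.2 and 8.02 TPM in E16.5 brain. Hba-a1 averaged 810 TPM in E12.5 and 578 TPM in E16.5 brain. Choroid plexus markers summed to 14.8 to 19.1 TPM, against 174 to 231 TPM, and 2 of 3 tested fell. Otx2 made most of that E12.5 sum, at a mean of 176 TPM, against 10.2 TPM in E16.5 brain. Ttr averaged 3.22 TPM in E12.5 and 5.46 TPM in E16.5 brain. The part of these cell types in the differences above was not tested.

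E12.5 brain differed from fixed E10.5 embryo in both directions. The test left out the untreated libraries, while TPM ranges and marker sums of fixed embryo cover all 6 libraries. Of 79 members tested, 61 rose, 7 fell and 11 did not pass, where 29.3% of all genes rose and 19.6% fell. The medians were 0.84 over members and 0.13 over all genes. The 61 include 13 alpha and 22 gamma gene IDs, which share exons and are not separate observations. The alpha and the 10 beta rises start near the floor. Alpha gene IDs averaged 0.86 to 1.60 TPM in E12.5 brain and 0.19 to 0.35 TPM in fixed embryo. The highest beta mean was 4.53 TPM in E12.5 brain and 0.89 TPM in fixed embryo. Cdh8, of neural circuits, had 16.4, 13.3, 21.3 and 18.6 TPM in E12.5 brain, against a lowest, median and highest of 0.3, 0.5 and 0.6 TPM in the 6 libraries of fixed embryo, and rose by 3.64 (SE 0.20, limma adjusted p = 2.99e-06). Cdh2 rose by 1.93, with 88.4 to 134 TPM in E12.5 brain and 23.4 to 36.0 TPM in fixed embryo. Cdh3 (P-cadherin, of epithelia and placenta) had 0.8, 2.7, 0.0 and 3.3 TPM in E12.5 brain, against 37.4 to 59.9 TPM in fixed embryo, and fell by 4.49 (SE 0.44, limma adjusted p = 5.87e-05). Cdh15 (M-cadherin, of muscle) fell by 2.64, Cdh11 by 0.99, Cdh5 by 0.79, Cdh1 by 0.70 and Cdh6 by 0.56. Cdh16, of kidney, fell by 1.12. The calls of Cdh1 and Cdh6 were lost in most fits that left out 1 library.

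Markers of several body tissues moved with those genes, and those of the nervous system with the genes that rose. The 5 epithelial markers summed to 7.4 to 39.8 TPM in E12.5 brain, against 491 to 623.5 TPM in fixed embryo. The 5 skeletal muscle markers summed to 0.0 to 7.6 TPM in E12.5 brain, with 2 of the 5 at 0 in every library, against 146 to 212 TPM in fixed embryo. The 5 mesenchyme markers summed to 139 to 219 TPM, against 671 to 947 TPM in fixed embryo. The 5 endothelial markers, beside Cdh5, overlapped, with 53.3 to 77.5 TPM in E12.5 brain and 71.5 to 86.7 TPM in fixed embryo, and 2 of them fell. All 5 neural progenitor and all 5 neuron markers rose, the progenitor markers to a sum of 2494 to 2819 TPM in E12.5 brain, against 688 to 883 TPM in fixed embryo, and the neuron markers to 2695 to 3216 TPM, against 483 to 1052 TPM. Their part in the differences was not tested.

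E16.5 brain was set against the libraries labelled fresh-frozen E10.5. Here too the test left out the untreated libraries, while the TPM values and marker sums printed for that label cover all 6 libraries. Of 88 members tested, 8 rose, 34 fell and 46 did not pass, where 23% of all 23026 genes rose and 37.8% fell. The 88 include 14 alpha and 22 gamma gene IDs, which share exons. The median change was -0.12 over members and -0.20 over all genes. Pcdh9 had 24.5, 23.5, 29.2 and 23.8 TPM in E16.5 brain, against a lowest, median and highest of 179, 199 and 221 TPM in the 6 libraries labelled fresh-frozen E10.5. It fell by 2.94 (SE 0.08, limma adjusted p = 1.23e-08). Pcdh17, Pcdh19 and Pcdh7 fell by 1.82, 1.72 and 1.63, and Cdh12 by 2.03. Cdh4, highest of all members there at 236 ± 18.9 TPM (SD, n = 6), fell by 1.14 in E16.5 brain. Cdh24, Pcdh1 and Cdh20 rose by 1.38, 1.26 and 0.92. All 5 glia markers rose, with a sum of 116 to 134 TPM in E16.5 brain, against 28.3 to 77.4 TPM in the libraries labelled fresh-frozen E10.5. Choroid plexus markers summed to 14.8 to 19.1 TPM in E16.5 brain, against 104 to 155 TPM, and of 4 tested 3 fell and 1 rose. Otx2 made most of the higher sum, at a mean of 123 TPM, against 10.2 TPM in E16.5 brain. Ttr averaged 1.36 TPM in the libraries labelled fresh-frozen E10.5 and 5.46 TPM in E16.5 brain. Endothelial markers summed to 71.7 to 74.1 TPM, against 49.8 to 66.0 TPM, and 3 of 5 rose. The neuron markers overlapped, with 4625 to 4731 TPM in E16.5 brain and 3335 to 4849 TPM in the libraries labelled fresh-frozen E10.5. Of these 5 markers 1 rose and 2 fell, with Tubb3 at means of 3574 and 2230 TPM and Gria2 at 87.2 and 341 TPM. Neural progenitor markers summed to 1468 to 1938 TPM in E16.5 brain, against 634 to 1075 TPM. Of those 5 markers 1 rose and 2 fell, with Fabp7 at means of 1259 and 264 TPM. The part of these cell types in the differences was not tested. Without IgG replicate 1 of the libraries labelled fresh-frozen E10.5, 43 members were called instead of 42. This comparison shares the E16.5 libraries with the one against E12.5 brain.

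Within the clusters some isoforms stood above their neighbours in the libraries labelled fresh-frozen E10.5. The beta genes Pcdhb7, Pcdhb20 and Pcdhb17 stood highest, at 7.004 ± 1.52, 4.09 ± 1.18 and 3.56 ± 0.62 times the beta median, and Pcdhb22 at 1.94 ± 0.34 times (SD, n = 6). Pcdha8 was 3.23 ± 0.69 times the alpha median and Pcdha12 1.75 ± 0.23 times (SD, n = 6), and both exceeded 1.5 times in every library. No alpha gene did so in the other 3 tables. The highest mean alpha ratio was 1.07 in E16.5 brain, 1.45 in E12.5 brain and 1.44 in fixed embryo. Pcdha8 was at 0.993 ± 0.0065 times the median in E16.5 brain and 1.0009 ± 0.0017 times in E12.5 brain (SD, n = 4 each). Since shared exons draw such ratios towards 1, this absence by itself cannot show that the tables differ in single alpha genes. The TPM of Pcdha8 did differ, with 10.4 to 12.3 TPM in E16.5 brain, against 34.8 to 53.0 TPM in the libraries labelled fresh-frozen E10.5. It fell by 1.79 in E16.5 brain in limma, within the uncertainty of TPM of single alpha genes given above. Pcdhgb4 and Pcdhgc4 averaged 1.80 ± 0.40 and 1.78 ± 0.44 times the gamma median but were under 1.5 times in at least 1 library. Pcdhb21 had 0.9, 1.2, 0.8 and 0.7 TPM in E16.5 brain, against 7.7 to 18.2 TPM in the libraries labelled fresh-frozen E10.5.

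Across all 20 libraries, the 3 members whose log2(TPM + 1) ran most like that of Cdh2 were Cdh8 (Pearson r 0.96), Pcdh8 (0.93) and Pcdhb10 (0.91). For Pcdh9 they were Pcdhgb4 (0.99), Pcdh19 (0.99) and Pcdha8 (0.99). The libraries fall into 4 tables, which set much of each r, so these values are descriptions.

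Over the whole family, both anti-G3BP1 libraries were above both IgG libraries in all 4 tables, but in fixed embryo they were not above the untreated ones. With each site counted once, the share of edited reads was 1.61% and 1.53% in anti-G3BP1, 0.577% and 0.753% in IgG and 0.300% and 0.217% in untreated libraries labelled fresh-frozen E10.5. In E16.5 brain it was 0.453% and 0.389% with anti-G3BP1 and 0.261% and 0.241% with IgG. In E12.5 brain it was 0.273% and 0.152%, against 0.0854% and 0.0882% with IgG, the latter from 6 and 16 edited reads. At 262 of the 304 member sites there no library had an edited read. In fixed embryo it was 0.518% and 0.461% in anti-G3BP1, 0.277% and 0.444% in IgG and 0.495% and 0.619% in untreated libraries, so anti-G3BP1 and untreated overlapped there. The ratio of anti-G3BP1 to IgG was 2.36 in the libraries labelled fresh-frozen E10.5 (1.90 over all sites), 2.45 in E12.5 brain (1.95), 1.68 in E16.5 brain (1.62) and 1.36 in fixed embryo (1.27). No test was made of these ratios.

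**Figure D4:**
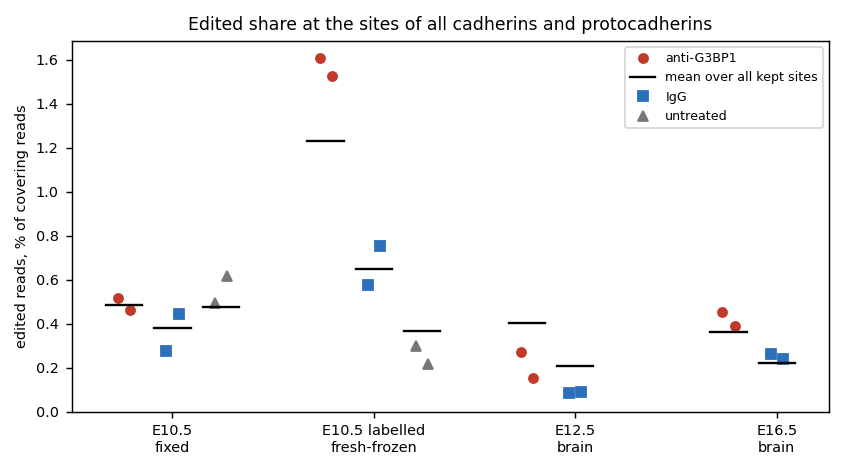
Share of edited reads at member sites in each library, as a percentage of covering reads, by table, with colour and shape giving anti-G3BP1, IgG and untreated and black bars the group mean over all sites of the table. In the fixed embryo the untreated libraries, at 0.495% and 0.619%, are not below the antibody libraries.

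The kind of edit moved both the size and, in fixed embryo, the direction. In fixed embryo, A-to-G sites of the family were edited in 0.208% of anti-G3BP1, 0.371% of IgG and 0.620% of untreated reads, so anti-G3BP1 was below both, and C-to-T sites in 0.628%, 0.333% and 0.473%. The A-to-G sites there were 15, with 5 edited anti-G3BP1 reads. At E12.5, A-to-G sites were edited in 0.254% of anti-G3BP1 and 0.0538% of IgG reads, and C-to-T sites in 0.189% and 0.102%. The A-to-G sites there were 88, with 22 edited anti-G3BP1 reads. At E16.5 the shares were 0.633% and 0.329% for A-to-G and 0.299% and 0.212% for C-to-T. In the libraries labelled fresh-frozen E10.5, A-to-G sites of the family were edited in 2.17% of anti-G3BP1, 0.670% of IgG and 0.245% of untreated reads, and C-to-T sites in 1.03%, 0.664% and 0.275%. Their 3′ UTR sites were edited in 1.69% of anti-G3BP1, 0.592% of IgG and 0.234% of untreated reads.

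For single genes, edited and unedited reads entered a quasi-binomial logistic model, adjusted over all genes of the table. The test was tried on data simulated at the depth and replicate spread of E16.5 brain, with changes planted in genes with many edited reads. There it found large rises far more often than falls of the same size, and few changes of 2-fold. The other tables, with fewer reads, were not simulated. A member that was not called is therefore not shown to be alike, and the absence of lower calls says little. Of the 93 gene IDs, those with enough reads to be tested numbered 27 in fixed embryo, 53 in the libraries labelled fresh-frozen E10.5, 28 at E12.5 and 67 at E16.5. In the libraries labelled fresh-frozen E10.5, 17 of 53 members were higher with anti-G3BP1 than with IgG, where 2.41% of all 7836 genes were. The 17 gene IDs stand on 6 distinct site sets out of 23, and 3 of the 6 are the alpha constant exons with or without a few sites of Pcdha8 or Pcdha12. In E16.5 brain 18 of 67 members were higher, on 5 of 36 site sets, where 6.65% of all 11741 genes were. Both anti-G3BP1 libraries were above both IgG libraries for 15 of the 23 site sets in the libraries labelled fresh-frozen E10.5, where 47.1% of all genes were, and for 20 of the 36 in E16.5 brain, where 42.1% were. The median log2 odds ratio over site sets was 1.15 in the libraries labelled fresh-frozen E10.5, against 0.91 over all genes. In E16.5 brain it was 0.67 over site sets and 0.41 over gene IDs, against 0.65 over all genes. Every one of the 17 and 18 calls was lost without 1 or more of the antibody libraries, and none was made by limma on the empirical logit or from C-to-T sites alone. The calls of Pcdh19 and Cdh4 in the libraries labelled fresh-frozen E10.5 were also lost without either untreated library.

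The alpha constant exons were edited in 2.54% and 2.34% of anti-G3BP1 reads, 0.573% and 0.339% of IgG reads and 0.447% and 0% of untreated reads in the libraries labelled fresh-frozen E10.5, over 48 sites. Both anti-G3BP1 libraries were above all others, and the log2 odds ratio over IgG was 2.40 (SE 0.49, quasi-binomial adjusted p = 0.00172). In E16.5 brain, over 122 sites, they were edited in 0.463% and 0.403% of anti-G3BP1 reads and 0.171% and 0.173% of IgG reads, a log2 odds ratio of 1.302 (SE 0.25, quasi-binomial adjusted p = 7.91e-05). The untreated library at 0% had 0 of 3480 reads.

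The gamma constant exons were edited less. In the libraries labelled fresh-frozen E10.5 they had 0.70% and 0.415% of anti-G3BP1, 0.294% and 0.298% of IgG and 0.184% and 0.242% of untreated reads, and in E16.5 brain 0.167% and 0.130% of anti-G3BP1 and 0.127% and 0.0879% of IgG reads. Their log2 odds ratios of 0.91 and 0.39 did not pass (quasi-binomial adjusted p = 0.455 and 0.43). The difference between the alpha and the gamma exons was not tested.

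The delta-2 genes Pcdh17 and Pcdh19 were called in both tables. Pcdh17 was edited in 1.82% and 1.69% of anti-G3BP1, 0.707% and 0.587% of IgG and 0.188% and 0.203% of untreated reads in the libraries labelled fresh-frozen E10.5, with a log2 odds ratio over IgG of 1.43 (SE 0.32, quasi-binomial adjusted p = 0.00428). In E16.5 brain it was at 0.914% and 1.07% with anti-G3BP1 and 0.444% and 0.470% with IgG, a log2 odds ratio of 1.15 (SE 0.29, quasi-binomial adjusted p = 0.00536). Pcdh19 had 2.06% and 1.31% of anti-G3BP1, 0.326% and 0.602% of IgG and 0.419% and 0.276% of untreated reads edited in the libraries labelled fresh-frozen E10.5 (log2 odds ratio 1.82, SE 0.46, quasi-binomial adjusted p = 0.015). In E16.5 brain it had 1.56% and 0.978% with anti-G3BP1 and 0.607% and 0.244% with IgG (1.39, SE 0.31, quasi-binomial adjusted p = 0.000823). Without IgG replicate 1 that ratio was 2.28 and without IgG replicate 2 it was 0.98. From C-to-T sites alone the log2 odds ratio of Pcdh17 was 0.75 in the libraries labelled fresh-frozen E10.5 and 0.34 in E16.5 brain.

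**Figure D5:**
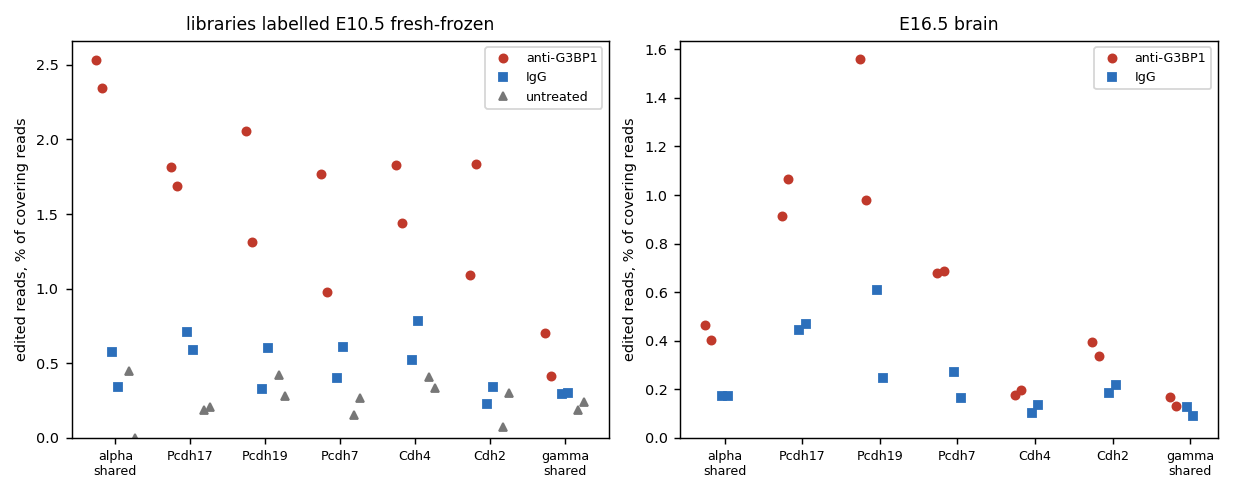
Share of edited reads in each library for the alpha and gamma constant exons and 5 genes, in the libraries labelled fresh-frozen E10.5 (left) and E16.5 brain (right), with 1 point per library and colour and shape giving anti-G3BP1, IgG and untreated. The y axes differ, and the gamma exons lie lowest in anti-G3BP1 reads in both panels.

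Pcdh7, Cdh2 and Cdh4 were called in 1 table each. Pcdh7 was edited in 0.677% and 0.685% of anti-G3BP1 reads and 0.270% and 0.165% of IgG reads in E16.5 brain (log2 odds ratio 1.59, SE 0.39, quasi-binomial adjusted p = 0.0038). In the libraries labelled fresh-frozen E10.5 its ratio was 1.33 (quasi-binomial adjusted p = 0.23). Cdh2 had 0.395% and 0.337% with anti-G3BP1 and 0.183% and 0.217% with IgG in E16.5 brain (0.87, SE 0.29, quasi-binomial adjusted p = 0.0495), just inside the threshold. In the libraries labelled fresh-frozen E10.5 Cdh2 had 1.09% and 1.84% of anti-G3BP1, 0.223% and 0.337% of IgG and 0.0746% and 0.297% of untreated reads edited, and the larger ratio of 2.39 did not pass (SE 0.91, quasi-binomial adjusted p = 0.154). Cdh4 had 1.83% and 1.44% of anti-G3BP1, 0.521% and 0.783% of IgG and 0.408% and 0.334% of untreated reads edited in the libraries labelled fresh-frozen E10.5 (1.28, SE 0.34, quasi-binomial adjusted p = 0.0243), and a ratio of 0.68 in E16.5 brain (quasi-binomial adjusted p = 0.321). From C-to-T sites alone its ratio in the libraries labelled fresh-frozen E10.5 was 0.15. Whether these effects differ between the tables was not tested.

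Pcdh9, the second most abundant member in the libraries labelled fresh-frozen E10.5, was edited there in 1.16% and 1.38% of anti-G3BP1 reads and 1.31% and 1.43% of IgG reads, against 0.469% and 0.237% of untreated reads. Its log2 odds ratio over IgG was -0.09 (SE 0.47, quasi-binomial adjusted p = 0.926). Pcdh10 was at 0.622 ± 0.19% with anti-G3BP1 and 0.387 ± 0.076% with IgG in E16.5 brain (SD, n = 2 each), and Cdh13 at 0.189 ± 0.0088% and 0.165 ± 0.069%. Both did not pass.

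No member was called in the other 4 comparisons with the quasi-binomial test. With anti-G3BP1 over IgG, 0 of 27 members were called in fixed embryo, where 0.0179% of all genes were, and 0 of 28 in E12.5 brain, where 0% were, and 0 members had an unadjusted p under 0.05 in either. For IgG over untreated, 0 of 53 members were called in the libraries labelled fresh-frozen E10.5, where 0.242% of all genes were, and 4 had an unadjusted p under 0.05. In fixed embryo it was 0 of 27, where 0% of all genes were called, and the 22 members with an unadjusted p under 0.05 are 1 observation, the gamma constant exons. These had 0.235% and 0.0796% of IgG reads edited, against 0.582% and 0.593% of untreated reads. limma on the empirical logit and the deviance F test also called 0 members in these 4 comparisons.

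Edits on partner transcripts were called for 9 of 48 genes in E16.5 brain (18.8%), where 6.65% of all genes were called. They were Pkp4 and Ctnnb1 among 11 catenins and linkers (log2 odds ratios 1.48 and 0.77), Fat4 and Celsr3 among 11 large and divergent cadherins (1.11 and 1.10), Nckap1 among 9 signalling genes (1.61), and Ctcf, Smc3, Stag2 and Smc1a among 10 genes of promoter choice and silencing (1.21, 2.14, 1.5 and 1.65), while none of 7 processing proteases was called. The median of all genes was 0.65, but called genes are high by selection. Over all tested genes of a list, called or not, the median was 0.72 for catenins and linkers and 0.49 for large and divergent cadherins. It was 1.40 for promoter choice and silencing, 0.79 for signalling and 0.51 for processing proteases. In the libraries labelled fresh-frozen E10.5, 1 of 40 partner genes tested, Fyn, was called (2.17), a share of 2.5% that is near the 2.41% of all genes.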

How the data were processed

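TPM values and, per site and library, counts of covering and of edited reads were deposited by the authors. The submitters' processing notes name GATK 4.5.0.0, Picard 3.1.1, featureCounts 2.0.1 (with Subread), HISAT2 2.2.1 and BWA 0.7.17, and the builds GRCm38 and mm10. What each tool did, the annotation and how sites were called is not given in the sources used here. In most libraries fewer sites had 1 edited read than 2.

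Members, gene lists and comparisons were chosen with earlier results of these data known. TPM was rescaled to 1000000 over the genes shared by the tables compared and tested with limma 3.58.1 on log2(TPM + 1). Untreated libraries were left out of the expression tests, because the brain tables have none. Sites covered by at least 10 reads in each library of a table were summed per gene. Genes with at least 50 such reads per library entered a quasi-binomial logistic model, with 0.25 edited and 0.25 unedited reads added, its dispersion moderated with limma and kept at 1 or more. All groups of a table shared the dispersion. Both tests were tested on simulated data, the quasi-binomial test at the depth and replicate spread of E16.5 brain alone. There the quasi-binomial test was conservative and found falls far less often than rises, so a deviance F test of the same model was added after seeing the data. Named genes were up to 10 per direction with the largest called change and a mean of 5 TPM or more, all members called for editing and the 6 with most reads, and a fixed list of 14 members. Other members named were chosen after their values were seen. Alternatives are given in the closing section. The 93 IDs were matched to GENCODE M21, 1 with another version number.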

Additional observations from a re-analysis of the deposited data

How the results depend on the processing

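The editing calls depend on the test and on each library. With anti-G3BP1 over IgG, 17 members were called in the libraries labelled fresh-frozen E10.5 and 18 in E16.5 brain. C-to-T sites alone gave 0 and 0, limma on the empirical logit 0 and 0, and sites listed under 1 gene alone 3 and 4, since the last setting removes the constant exons. Leaving out 1 library gave 0 to 15 in the libraries labelled fresh-frozen E10.5, with 0 without any 1 of the 4 antibody libraries, and 0 to 14 in E16.5 brain, with 14 without IgG replicate 2 and 0 without any other. A lone library is then assumed to vary like the other groups. The deviance F test, added after seeing the data, called 18 and 18 members but 685 genes instead of 189 in the libraries labelled fresh-frozen E10.5 (678 higher, 7 lower) and 1061 instead of 781 in E16.5 brain. In E12.5 brain it called 16 genes instead of 0. Sites with 1 alternative allele, also added, gave 17 and 16 members.

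The family ratio of anti-G3BP1 to IgG moved with the kind of edit. With A-to-G sites alone it was 0.558 in fixed embryo, 3.28 in the libraries labelled fresh-frozen E10.5, 6.94 at E12.5 and 2.02 at E16.5. The E12.5 value rests on few reads, with 22 edited anti-G3BP1 reads at 88 sites. These are ratios of means over libraries, while the A-to-G and C-to-T shares given earlier pool the reads of a group. C-to-T sites alone gave 1.56 in the libraries labelled fresh-frozen E10.5 and 1.42 in E16.5 brain, and 20 reads per site gave 2.39 in fixed embryo. Leaving out 1 library gave 1.10 to 1.77, 2.08 to 2.71, 1.75 to 3.14 and 1.55 to 1.81 in the order fixed embryo, fresh-frozen label, E12.5 and E16.5.

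For expression, 79, 68 and 42 members were called in E16.5 over E12.5 brain, E12.5 brain over fixed embryo and E16.5 brain over the libraries labelled fresh-frozen E10.5. Leaving out 1 library gave 76 to 81, 51 to 62 and 34 to 43. A filter of 5 TPM gave 42 in E12.5 brain over fixed embryo, with fewer members tested. The replicate block gave 79, 63 and 40 for expression and 14 and 18 for editing. Samples share only a number, and deviations of same-numbered libraries correlated at -0.04 to 0.04. The causes of these differences were not tested.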
